A study of Mus musculus with 2 samples.

Results

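Kinesin motor genes were taken as the protein-coding genes of the mouse annotation whose symbol is Kif followed by a digit. The rule found 39 genes among 21474 protein-coding genes and 43346 genes in all. By known role, 12 of the 39 were grouped as cargo transport kinesins, 9 as ciliary, 12 as mitotic and 6 as other. One of the 6, Kif1bp, carries the name but encodes a protein that binds kinesins and has no motor, so the rule holds 38 motors and this partner. The samples were hindbrains of day 16.5 embryos of B6NCrl mice, described as healthy, with no treatment in the labels and with male and female embryos pooled. Replicate 2 was a pool of 37 embryos, and the sources used here do not state how many went into replicate 1. Total RNA of each pool gave 1 library, so there is 1 group with n = 2 and no contrast between conditions, and no p-value was computed. Each pool holds all cell types of the dissected tissue, so fewer cells of a type and less RNA per cell cannot be told apart.

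Kinesins are motor proteins that hydrolyse ATP and mostly walk along microtubules towards the plus end. In neurons, members of the kinesin-1, kinesin-2 and kinesin-3 families carry vesicles, mitochondria and other cargo from the cell body out along the axon, while dynein carries cargo back. Kinesin-2 also drives intraflagellar transport into the cilium, and another set of kinesins assembles the spindle, moves chromosomes and completes cell division, so a tissue that holds both young neurons and dividing progenitors can use all of these sets.

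The libraries held 42467811 and 42017008 expected counts (reads as assigned by the authors' model), of which spike-in RNA took 2.177% and 1.595%. Hindbrain markers were present, with 8 of 9 at 1 TPM or more in both libraries, and all 8 neuron markers were above that level. TPM corrects read counts for transcript length and scales each library to the same total, and all levels below are on that scale. Markers of other tissues differed between the pools. The 8 skeletal muscle markers summed to 338 TPM in replicate 1 and 14.7 TPM in replicate 2, and the 5 meningeal fibroblast markers to 581 and 318 TPM. Their part in the kinesin values was not tested.

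As a set, the kinesins of axonal cargo transport had the highest median level in both pools, although single genes of the sets overlapped. The median level of the 12 cargo transport genes was 49.0 TPM in replicate 1 and 43.8 in replicate 2, against 4.90 and 4.09 TPM for the 12 mitotic genes and 2.36 and 2.02 TPM for the 9 ciliary genes. The median over all protein-coding genes was 5.97 and 5.50 TPM, which lies below the first set and above the other two. Summed over the 39 genes, kinesin RNA came to 1464 TPM in replicate 1 and 1522 in replicate 2. Cargo transport genes supplied 68.1% of it in each pool, ciliary genes 19.3% and 20.6%, mitotic genes 5.62% and 4.24%, and the other genes 7.03% and 7.13%. The ciliary genes summed to 282 and 313 TPM, of which Kif3a, whose product also carries axonal cargo, gave 244 and 278 TPM. Of the 39 genes, 34 reached 1 TPM in both libraries, against 63.5% of all protein-coding genes. All 12 cargo transport genes did so, as did 8 of 9 ciliary, 10 of 12 mitotic and 4 of 6 other genes. At 10 TPM the number was 13 of 39, against a background of 41.5%.

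**Figure D1:**
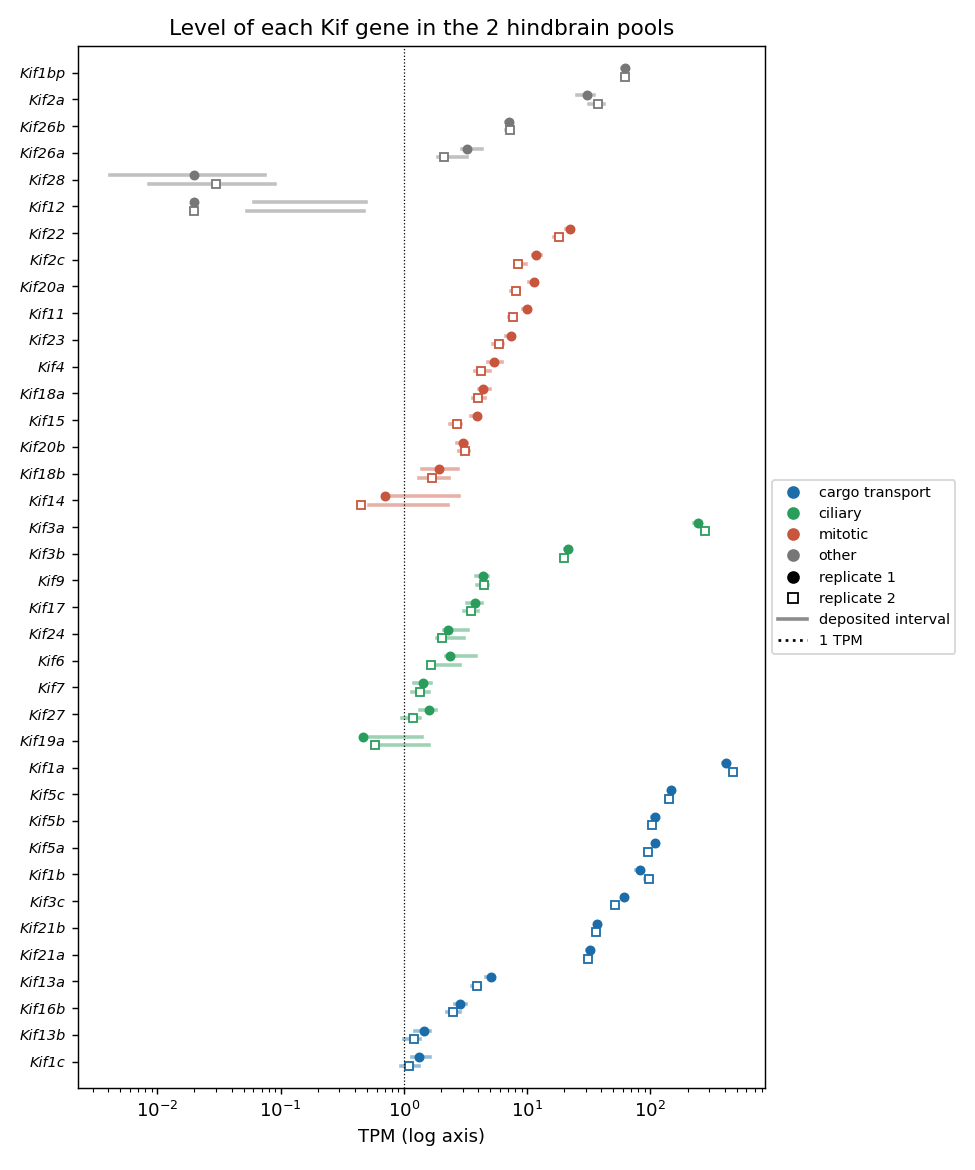
TPM of 38 Kif genes (log axis) in replicate 1 (filled circles) and replicate 2 (open squares), coloured by role, with the deposited interval of each value as a pale bar. Cargo transport genes reach 472 TPM, Kif3a and Kif3b stand above the other ciliary genes, and Kif2b, at 0 in both libraries, is not drawn.

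The 5 genes below the detection level were Kif14, Kif19a, Kif28, Kif12 and Kif2b. Ordered by mean level, 9 of the 38 pairs of neighbouring genes had deposited TPM intervals that were apart in both libraries, and the intervals of all other neighbours overlapped in at least 1 library. The sources used here do not state the confidence level of these intervals, which cover assignment of reads within a library, not the spread between pools. Some values lie outside their own interval, as for Kif5a in replicate 1, at 108 TPM with an interval of 104 to 107 TPM. Kif14, at 0.70 and 0.45 TPM, had intervals of 0.79 to 2.79 and 0.52 to 2.27 TPM. The intervals of Kif14 and Kif19a span 1 TPM in both libraries, so their place below the detection level rests on the TPM value alone.

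Kif1a, the kinesin-3 motor of synaptic vesicle precursors and dense-core vesicles, was the highest of all at gene level (chr1:93015464-93101951, minus strand, mm10). It was at 411 TPM in replicate 1, with a deposited interval of 391 to 414, and at 472 TPM in replicate 2, with an interval of 450 to 476. The intervals do not overlap and replicate 2 was the higher. Its relative Kif1b, which moves mitochondria or synaptic vesicle precursors depending on the isoform (chr4:149176319-149307693, minus strand), was at 81.7 and 97.3 TPM. Kif1c, a ubiquitous vesicle motor of the same family, was at 1.33 and 1.11 TPM, so Kif1b exceeded it 73.4-fold (log2 ratio 6.20 ± 0.36, SD, n = 2).

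The kinesin-1 heavy chains Kif5a, Kif5b and Kif5c pull the broadest range of axonal cargo, with Kif5a and Kif5c largely neuronal and Kif5b found in most cells. Kif5c (chr2:49619298-49774778, plus strand) was at 146 and 140 TPM. Kif5b was at 109 and 104 TPM, and Kif5a (chr10:127225696-127263348, minus strand) at 108 and 95.5 TPM. Kif5c was thus the highest of the 3 in both pools, at 40.1% and 41.3% of their sum, and Kif5a and Kif5b could not be ordered, since their intervals overlapped in replicate 1. The sum of the 3 heavy chains was 363 TPM in replicate 1 and 339 in replicate 2. The 4 kinesin light chain genes, whose products link heavy chains to cargo, summed to 634 and 649 TPM.

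Kif3c, a kinesin-2 motor enriched in neurons that pairs with Kif3a (chr12:3365132-3406494, plus strand), was at 60.9 and 51.2 TPM. An antisense gene, 1110002L01Rik, overlaps exons of Kif3c over 2617 bases, and the sources used here do not say whether counting used the strand. Kif21a and Kif21b, kinesin-4 motors that restrain microtubule growth in axons and dendrites, stood at similar levels: 32.3 and 30.96 TPM for Kif21a, 37.2 and 36.5 TPM for Kif21b. The endosome motors were low. Kif13a was at 5.06 and 3.95 TPM, Kif16b at 2.85 and 2.48 TPM, and Kif13b at 1.46 and 1.2 TPM. The 12 genes of this role therefore split by level into 8 genes above 30 TPM in both pools and 4, Kif13a, Kif16b, Kif13b and Kif1c, at no more than 5.06 TPM.

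The partners of these motors were abundant as well. All 16 light chain and adaptor genes reached 1 TPM in both libraries, with a median of 72.8 TPM over the mean of both pools. Klc1, the main neuronal light chain, was at 529 and 548 TPM, and Fez1, a kinesin-1 adaptor, at 463 and 478 TPM. Arl8a, a small GTPase that recruits kinesins to lysosome-related and synaptic vesicles, was at 329 and 276 TPM, and Kifap3, the non-motor subunit of the Kif3 complex, at 113 and 113 TPM. The lowest was Klc3, at 1.88 and 2.11 TPM. For the opposite direction of transport, all 19 dynein and dynactin genes reached 1 TPM in both pools, and their median was 91.8 TPM. Dynll1 and Dynlrb1, light chains of dynein, led with 977 and 1053 TPM and with 624 and 658 TPM. Of the Dynll1 level, 41.9% and 41.2% was in protein-coding transcripts. Dctn2 and Dctn3, dynactin subunits, were at 267 and 268 TPM and at 259 and 270 TPM. The lowest of the list was the cargo adaptor Bicd2, at 25.2 and 20.96 TPM.

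Gene-level TPM sums all annotated transcripts, and for several of the highest kinesins much of it fell on short ones. Kif1a-206, a coding transcript of only 528 bases with 327 coding bases, took 49.4% of Kif1a TPM in replicate 1 and 50.6% in replicate 2 (203 and 239 TPM). It held only 8.05% and 9.25% of the counts of Kif1a, because TPM divides counts by length. Kif1a-208, a processed transcript of 570 bases, took another 19.6% and 21%. The long coding transcript Kif1a-204, with 8206 bases and 5091 coding bases, was at 98.3 and 86.1 TPM. Of the 31-base words in Kif1a-206, 77.9% also occur in Kif1a-204, and of those in Kif1a-208, 91.1% do. Most of the short transcripts is therefore also part of the long one, and the split of reads between them rests on the authors' model.

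A transcript was called full-length coding where it is of the protein-coding type and its coding sequence reaches 80% of the longest of its gene, a split chosen after the values were seen. On that scale Kif1a was at 127 and 133 TPM, or 30.8% and 28.2% of its gene total, and no longer ranked first. Kif3a came first with 148 and 155 TPM, then Kif5c with 145 and 140 TPM, with Kif1a after them. Kif5a followed with 108 and 95.5 TPM, its single transcript being full length. Kif5b dropped from the fourth place to the eighth, at 37.6 and 39.4 TPM, because Kif5b-202, with 1857 coding bases of 2889, took 58.1% and 56.5% of the gene. Among the 34 genes whose mean level was at least 1 TPM, 9 had under 80% of TPM in full-length coding transcripts in both pools, against a background of 31.9%. They were Kif1a, Kif3a, Kif5b, Kif1b, Kif21b, Kif2a, Kif17, Kif24 and Kif6. The median full-length share was 98.95% over the 34 genes and 94.18% over all protein-coding genes at that level. Of the summed full-length TPM of all members, cargo transport genes supplied 63.1% and 62.7% and ciliary genes 19.0% and 20.5%. Mitotic genes supplied 8.48% and 6.99%, and the other genes 9.47% and 9.83%.

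**Figure D2:**
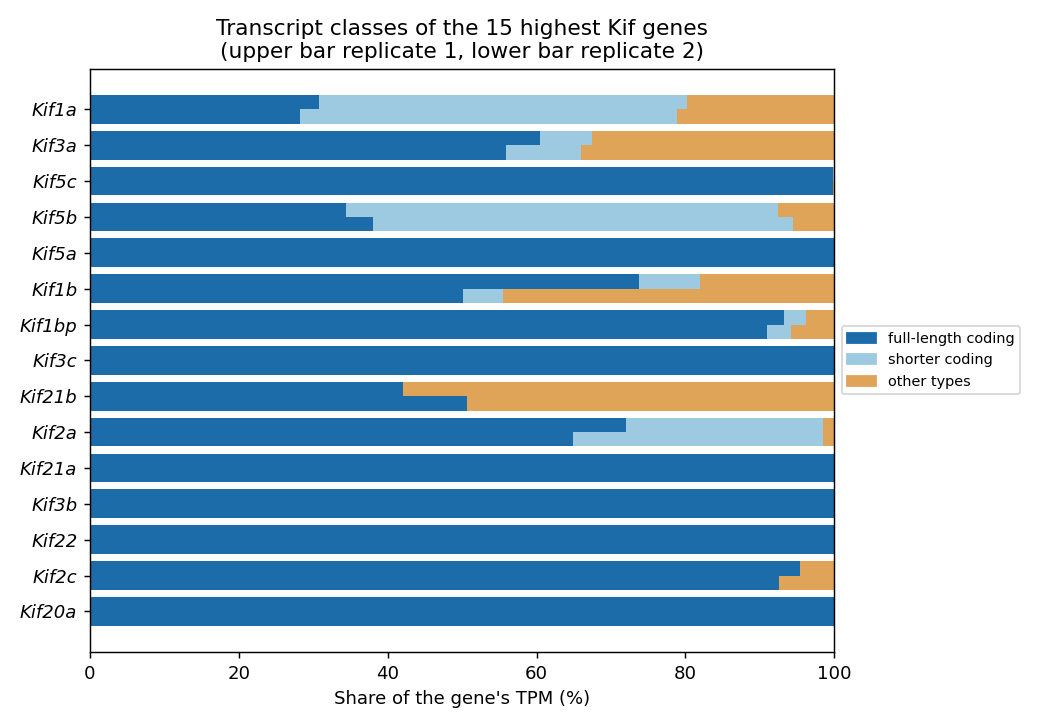
Share of each gene's TPM (%) in full-length coding transcripts (dark blue), shorter coding transcripts (light blue) and transcripts of other types (orange) for the 15 Kif genes with the highest mean TPM, with replicate 1 as the upper bar and replicate 2 as the lower. Full-length transcripts hold 30.8% and 28.2% of Kif1a and all of Kif5a, Kif3c, Kif21a, Kif3b, Kif22 and Kif20a.

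Under 80% of TPM in protein-coding transcripts of any length was found for 5 of the 34 genes in both pools, against a background of 21.8%. These were Kif3a, Kif21b, Kif17, Kif24 and Kif6, of which 4 are ciliary. In Kif21b the highest transcript was Kif21b-204, annotated as a target of nonsense-mediated decay, the pathway that degrades RNA with a premature stop codon. It was at 20.0 and 15.5 TPM, against 15.6 and 18.5 TPM for the coding transcript Kif21b-201, so the order of the pair differed between pools. Its annotated coding sequence, of 4917 bases, is not shorter than that of Kif21b-201, of 4872. Kif21b-204 is left out of the full-length class by its type, not by its length. The 2 transcripts share 97.8% of the 31-base words of Kif21b-204. By the mean of both pools, the leading transcript was full-length coding for 12 of the 15 highest genes, the exceptions being Kif1a, Kif5b and Kif21b. For Kif3a this held in replicate 1, where Kif3a-203 was at 89.8 TPM and the decay-type Kif3a-206 at 61.9, but not in replicate 2, where they were at 78.2 and 83.3 TPM.

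Kif1b gives the clearest case of isoforms with different cargo. Its long isoform carries synaptic vesicle precursors and its short isoform mitochondria, and the motor domain is common to both. The long transcript Kif1b-203 has 5448 coding bases and was at 60.3 TPM in replicate 1 and 48.7 TPM in replicate 2. The short transcript Kif1b-201 has 3450 coding bases and was at 6.71 and 5.27 TPM. The long form was 9.12-fold higher (log2 ratio 3.19 ± 0.03, SD, n = 2), with nearly the same ratio in both pools. The coding sequences part for good after base 1977 of the short one and base 2115 of the long one. Beyond that point lie 1473 coding bases in the short form and 3333 in the long. The long form also has coding bases before that point that the short form lacks. The stretch around that point is shown because the isoforms use different exons after it, with 30 shared bases in lower case and 60 bases from the exons of each isoform in capitals. The first 3 capital letters are the same in both, and the first difference is at the next base. The bases lie on the minus strand within chr4:149238424-149245367 for Kif1b-201 and chr4:149226297-149245367 for Kif1b-203 (mm10, introns removed).
Kif1b-201: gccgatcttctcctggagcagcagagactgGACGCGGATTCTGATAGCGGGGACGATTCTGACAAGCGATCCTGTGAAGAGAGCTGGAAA
Kif1b-203: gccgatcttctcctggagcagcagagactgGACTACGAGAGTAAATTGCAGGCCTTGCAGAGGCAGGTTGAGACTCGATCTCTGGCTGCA

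The Kif1b total differed between pools in opposite directions on the 2 scales. In expected counts the gene was at 16774 in replicate 1 and 14505 in replicate 2, a log2 ratio of -0.20 after scaling. In TPM it was at 81.7 and 97.3, the higher value being in replicate 2. Kif1b-205, a retained-intron transcript of 587 bases, was at 11.2 TPM in replicate 1 and 35.0 TPM in replicate 2, from 137 and 439 counts. Full-length Kif1b was lower in replicate 2, as the counts were.

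Among ciliary kinesins, Kif3a and Kif3b were set apart from the other 7. These are the motor subunits of heterotrimeric kinesin-2, which builds cilia and also carries axonal cargo. Kif3a (chr11:53567379-53601967, plus strand) was at 244 TPM in replicate 1, with an interval of 227 to 251, and at 278 TPM in replicate 2, with an interval of 260 to 285. Kif3b (chr2:153291413-153333390, plus strand) was at 21.4 and 20.0 TPM. Kif3a exceeded Kif3b 12.6-fold (log2 ratio 3.65 ± 0.20, SD, n = 2), and 7.32-fold in full-length coding transcripts. Kif3b and Kif3c, the alternative partners of Kif3a, summed to 82.3 and 71.2 TPM. The decay-type transcript Kif3a-206, of 770 bases, held 25.4% and 29.9% of Kif3a TPM, and 93.6% of its 31-base words occur in the coding transcript Kif3a-203.

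The remaining ciliary kinesins were at 4.44 TPM or below. Kif9, a motor of motile cilia and sperm tails, was at 4.42 and 4.44 TPM, and Kif17, a homodimeric kinesin-2 of dendrites and cilia, at 3.78 and 3.53 TPM. Only 15.9% and 21.5% of Kif17 TPM was in its full-length transcript. Kif24, which shortens centriolar microtubules and restrains cilium formation, was at 2.30 and 2.02 TPM, and Kif6, needed for cilia of ependymal cells, at 2.36 and 1.67 TPM. Kif7, which organizes the ciliary tip and controls Gli proteins in Hedgehog signalling, was at 1.43 and 1.36 TPM. Its closest relative Kif27 was at 1.61 and 1.18 TPM, and the order of the pair differed between pools. Kif19a, which limits the length of motile cilia, was at 0.47 and 0.58 TPM, from 30 and 31 counts.

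All 19 intraflagellar transport genes reached 1 TPM in both pools. Their median was 20.4 TPM, and the highest were Ift46 at 132 and 126 TPM, Ift20 at 99.2 and 104 TPM, Ift27 at 84.0 and 85.2 TPM, and Ift81 at 45.2 and 46.8 TPM. The lowest of them, Wdr19, was at 6.84 and 6.21 TPM. All 6 Hedgehog partners of Kif7 were above 1 TPM, with 6.41 TPM as their median. Sufu, which restrains Gli proteins, was at 19.8 and 16.01 TPM, and the receptor Ptch1 and the transducer Smo were at 10.6 and 9.59 TPM and at 11.4 and 8.17 TPM. Gli3 was at 3.69 and 2.40 TPM, and the lowest, Gli1, at 1.61 and 1.45 TPM. Of the 10 motile cilium genes, 7 were detected, near the background of 63.5%. The list's median was 4.38 TPM, against 5.82 TPM over all protein-coding genes.

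Mitotic kinesins were present at low levels, with Kif22 the only one at 10 TPM in both pools. Kif22, a chromokinesin that pushes chromosome arms towards the metaphase plate (chr7:127027729-127042471, minus strand), was at 22.4 and 18.2 TPM. Kif2c, a depolymerase that corrects faulty kinetochore attachments, was at 11.7 and 8.47 TPM. Kif20a, which brings the chromosomal passenger complex to the midzone, was at 11.4 and 8.18 TPM, and its exons overlap those of Cdc23 on the opposite strand over 1271 bases. Each of these was higher in replicate 1, with intervals that did not overlap.

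The motors of spindle bipolarity and of the midzone followed. Kif11, which slides spindle poles apart, was at 9.98 and 7.69 TPM, and Kif15, which shares this task, at 3.90 and 2.68 TPM. Kif23, the motor of centralspindlin, was at 7.40 and 5.93 TPM, and Kif4, a chromokinesin that works with Prc1 at the midzone, at 5.38 and 4.20 TPM. The plus-end motors Kif18a and Kif18b, which limit microtubule growth in mitosis, were at 4.41 and 3.98 TPM and at 1.93 and 1.68 TPM. Kif20b, a motor of late cytokinesis, was at 3.02 and 3.14 TPM. Kif14, also of cytokinesis, was at 0.70 and 0.45 TPM, and Kif2b had no count in either library, which allows up to 3 counts in each. All 20 spindle and midzone partner genes were above 1 TPM, and their median was 17.5 TPM. Cdk1, the mitotic kinase, was at 74.5 and 69.0 TPM, with 53.1% and 46.9% of it in protein-coding transcripts. Racgap1, the partner of Kif23, was at 54.1 and 47.3 TPM, and Ccnb1 and Birc5 were at 44.4 and 35.5 TPM and at 36 and 31.7 TPM.

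Promoter sequence was examined for the mitotic genes because most of them differed between pools in the same direction. At a mean of 1 TPM or more, 8 of 10 mitotic genes were lower in replicate 2 in scaled counts. So were 10 of 12 cargo transport genes, and the direction depends on the scaling, as given below. The windows are the 250 bases before the start of each gene in RefSeq (GRCm38.p6). They were present for 31 of the 39 genes, in 35 windows, and for 11 of the 12 mitotic genes. The table has no entry for Kif1bp, Kif5a, Kif5b, Kif13b, Kif19a, Kif20a, Kif21b and Kif28. Both motifs are known from promoters of genes of the late cell cycle: CCAAT, read as ATTGG on the other strand, and TTTGAA, read as TTCAAA on the other strand. The motifs share no overlap in the windows shown. CCAAT was in 7 of 11 mitotic windows (63.6%) and in 33.8% of all 32851 windows. TTTGAA was in 5 of 11 (45.5%) and in 16% of all, and both together in 3 of 11 (27.3%) and in 5.55% of all. The counted windows of Kif14, with both motifs, and Kif2c, with TTTGAA, lie inside the genes as GENCODE annotates them. The Kif14 gene starts at chr1:136466343 and its window ends at 136467847. On the minus strand, the Kif2c gene starts at chr4:117182639 and its window ends at 117178773. Among the 9 windows of ciliary genes, 5 held CCAAT (55.6%), a share near that of the mitotic windows, and 1 held TTTGAA (11.1%). Among the 10 windows of cargo transport genes, 2 held CCAAT, both belonging to Kif1b, and 1 held TTTGAA, that of Kif1a. A match is a description of letters and shows no binding. Of the mitotic genes with CCAAT, Kif11, Kif14, Kif22, Kif23 and Kif4 were lower in replicate 2 in scaled counts. Kif18b was higher and Kif2b had no count. Kif15 and Kif2c, which had the lowest ratios among mitotic genes at a mean of 1 TPM or more, held TTTGAA but no CCAAT. A link between the motifs and the difference between pools was not tested.

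The 150 bases before the start are given for Kif11, which holds both motifs, for Kif18b, which holds CCAAT at 2 places, for Kif23, which holds it next to the start, and for the cargo transport gene Kif5c, which holds neither. Capitals mark the motifs, and each sequence reads along the strand of its gene. They lie at chr19:37376232-37376381 on the plus strand (Kif11), chr11:102925125-102925274 on the minus strand (Kif18b), chr9:61946800-61946949 on the minus strand (Kif23) and chr2:49619136-49619285 on the plus strand (Kif5c).
Kif11: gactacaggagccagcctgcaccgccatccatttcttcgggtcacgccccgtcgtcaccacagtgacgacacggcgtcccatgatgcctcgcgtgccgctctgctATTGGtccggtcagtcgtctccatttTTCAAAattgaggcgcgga
Kif18b: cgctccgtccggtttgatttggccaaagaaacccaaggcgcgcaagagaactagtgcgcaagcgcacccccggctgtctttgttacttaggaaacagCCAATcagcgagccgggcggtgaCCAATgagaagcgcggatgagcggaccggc
Kif23: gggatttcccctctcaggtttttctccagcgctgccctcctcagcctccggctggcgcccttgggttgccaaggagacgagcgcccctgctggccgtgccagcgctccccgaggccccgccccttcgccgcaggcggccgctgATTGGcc
Kif5c: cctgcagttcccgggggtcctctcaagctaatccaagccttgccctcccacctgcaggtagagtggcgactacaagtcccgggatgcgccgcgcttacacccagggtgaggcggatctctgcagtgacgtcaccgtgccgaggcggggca

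**Figure D3:**
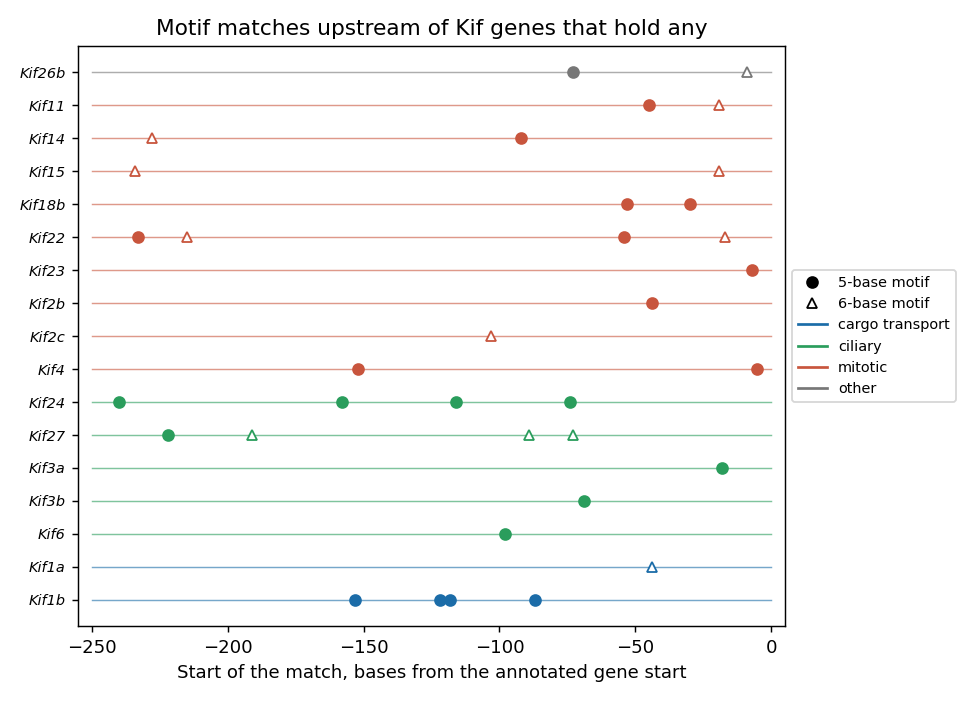
Start of each motif match, in bases from the RefSeq gene start, for the Kif genes with any match in the 250 bases upstream. Genes are coloured by role, with filled circles for the 5-base motif and open triangles for the 6-base motif. For Kif14 and Kif2c the RefSeq start lies inside the gene as GENCODE annotates it. The 6-base matches of Kif11, Kif15 and Kif22 start 19, 19 and 17 bases before the gene start, and Kif1b, with 2 annotated starts, shows the matches of both windows.

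Among the 6 genes outside these roles, Kif1bp and Kif2a were high. Kif1bp (chr10:62538626-62578457, minus strand), whose product binds several kinesins and limits their attachment to microtubules, was at 62.0 and 61.8 TPM. Kif2a, a depolymerase that prunes axon branches and also acts at spindle poles (chr13:106958996-107022126, minus strand), was at 30.4 and 37.2 TPM. A coding transcript of 288 bases, Kif2a-205, held 26.4% and 33.5% of that from 38.1 and 60.7 counts. Exons of Dimt1 overlap Kif2a on the opposite strand over 1229 bases. The atypical kinesins Kif26b and Kif26a, which bind microtubules but lack the usual motor activity, were at 7.18 and 7.29 TPM and at 3.22 and 2.12 TPM. Kif12, best known from kidney and liver, and Kif28 had no more than 3 counts in a library. Genes on the opposite strand also overlap exons of Kif4 (Pdzd11, 832 bases), Kif26b (Gm16564, 909 bases), Kif7 (9330171B17Rik, 877 bases) and Kif1bp (4933428P19Rik, 494 bases), and reads from such stretches cannot be assigned to a strand here. Of the 5 kinesins without a Kif number, 4 were detected. The C-terminal motors Kifc2 and Kifc3 were at 58.0 and 61.6 TPM and at 21.6 and 19.8 TPM. Cenpe, the kinetochore motor, was at 3.97 and 3.60 TPM, Kifc1 at 2.21 and 2.07 TPM, and Kifc5b, the lowest, at 0.86 and 0.72 TPM.

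Related genes were then compared within each library. Of 16 pairs fixed by family or task, 14 had intervals that did not overlap, in the same direction, in each library, and the exceptions were Kif5a with Kif5b and Kif7 with Kif27. Within the kinesin-3 family Kif1a exceeded Kif1b 4.94-fold (log2 ratio 2.30 ± 0.04, SD, n = 2), and in full-length transcripts 2.39-fold. Kif1b exceeded Kif1c 73.4-fold, and in full-length transcripts 49.4-fold. Kif13a exceeded Kif13b 3.38-fold in both measures. Kif5c exceeded Kif5a 1.41-fold and Kif5b 1.34-fold, and in full-length transcripts the second ratio was 3.71-fold. On that scale Kif5a also exceeded Kif5b, 2.64-fold.

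The direction was the same in full-length transcripts for 13 of the 14 pairs. The exception was Kif21a with Kif21b, whose log2 ratio was -0.22 ± 0.02 over all transcripts and 0.90 ± 0.22 in full-length ones (SD, n = 2). The full-length value of Kif21b leaves out Kif21b-204, because of its type. Among mitotic pairs, Kif11 exceeded Kif15 2.71-fold, Kif20a exceeded Kif20b 3.14-fold, Kif18a exceeded Kif18b 2.33-fold and Kif4 exceeded Kif14 8.47-fold. The depolymerase Kif2a exceeded Kif2c 3.38-fold, with log2 ratios of 1.37 in replicate 1 and 2.14 in replicate 2. In full-length transcripts it exceeded Kif2c 2.46-fold. Kif3c exceeded Kif3b 2.70-fold and Kif26b exceeded Kif26a 2.77-fold.

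**Figure D4:**
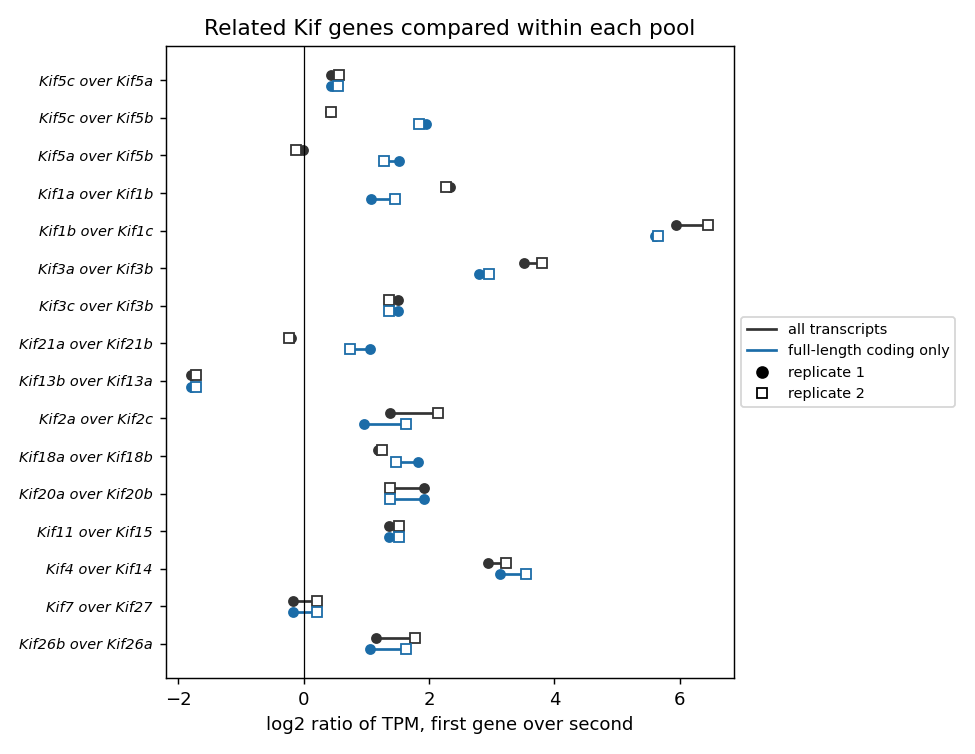
The log2 ratio of TPM, first gene over second, for 16 pairs of related Kif genes in replicate 1 (filled circles) and replicate 2 (open squares), over all transcripts (black) and over full-length coding transcripts (blue). Kif21a over Kif21b lies below 0 over all transcripts and above 0 in full-length ones, and Kif7 over Kif27 lies on both sides of 0.

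The pools were compared by log2 ratios of counts, replicate 2 over replicate 1, with TMM scaling. None of the 34 genes whose mean level was at least 1 TPM was over 2-fold apart, against a background of 1.51%. Lower in replicate 2 were 25 of the 34, against a background of 53.1%, and higher were 9, against 46.9%. The median effective length was 4477 bases over the 34 genes and 2450 over all protein-coding genes at that level. Of 7658 protein-coding genes in the length range of the mitotic kinesins, 63.5% were lower in replicate 2. The mitotic genes had the lowest median, at -0.29, with 8 of 10 lower in replicate 2. The median was -0.14 for cargo transport genes, with 10 of 12 lower, -0.03 for ciliary genes, with 5 of 8 lower, and -0.02 for all protein-coding genes. Scaled by spike-in totals instead, every log2 ratio is higher by 0.45 and the medians are 0.16, 0.31 and 0.42 for mitotic, cargo transport and ciliary genes. The sign of these medians therefore depends on the scaling. Their order could not change, because the shift is the same for every gene.

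By deposited intervals, 10 of the 34 genes were higher in replicate 1 without overlap, against a background of 22.3%, and 6 of these 10 were mitotic: Kif22, Kif2c, Kif20a, Kif11, Kif23 and Kif15. The other 4 were the cargo transport genes Kif5c, Kif5a, Kif3c and Kif13a. In counts Kif5c hardly differed between pools, at a log2 ratio of -0.003 (95% counting interval -0.03 to 0.02). Higher in replicate 2 were Kif1a, Kif3a and Kif1b, 3 of 34, against a background of 9.07%. Of these, Kif1b was lower in counts, as described above. In the length range of the mitotic kinesins, 2183 of 7658 protein-coding genes were higher in replicate 1 without overlap, and 435 were higher in replicate 2. The first of these shares is near that of the 10 among 34 kinesins. Among the 10 mitotic genes at a mean of 1 TPM or more, the lowest ratio was that of Kif15, at -0.49 (95% counting interval -0.70 to -0.29, exact binomial), from 462 and 325 counts. Kif2c was at -0.45 (-0.61 to -0.29) and Kif20a at -0.43 (-0.57 to -0.29). Kif20b and Kif18b were the 2 mitotic genes with ratios above 0, at 0.11 (-0.09 to 0.30) and 0.21 (-0.18 to 0.60). Kif14, below that level, was at -0.64 (-1.05 to -0.24) from 137 and 87 counts. These intervals cover counting error only. The lowest ratio of all 34 belonged to Kif26a, at -0.61, from 551 and 358 counts.

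The partners of the mitotic kinesins lay on the same side. Of the 20 spindle and midzone partners, 19 were lower in replicate 2, with a median log2 ratio of -0.25. By intervals without overlap, 12 of the 20 were higher in replicate 1, against a background of 22.3%. In the length range of the mitotic kinesins, 2183 of 7658 protein-coding genes were. Protein-coding genes in the range of effective lengths of the mitotic kinesins had a median of -0.06, with 63.5% lower in replicate 2. The 6 Hedgehog partners were all lower in replicate 2, with a median of -0.35. The 8 neuron markers were all higher in counts, with a median of 0.08 and ratios from 0.015 to 0.27. In TPM, 2 of these 8 were lower in replicate 2. Dynein and dynactin genes had a median of 0.04, light chains and adaptors of -0.02, and intraflagellar transport genes of -0.04. The summed muscle and meningeal markers given above were also lower in replicate 2, and their part in these ratios was not tested. The spread between the pools over 17947 genes corresponds to a standard deviation of 0.32 for the log2 ratio of a single gene, against which the ratio of Kif26a, at -0.61, is larger in size and that of Kif22, at -0.25, smaller.

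**Figure D5:**
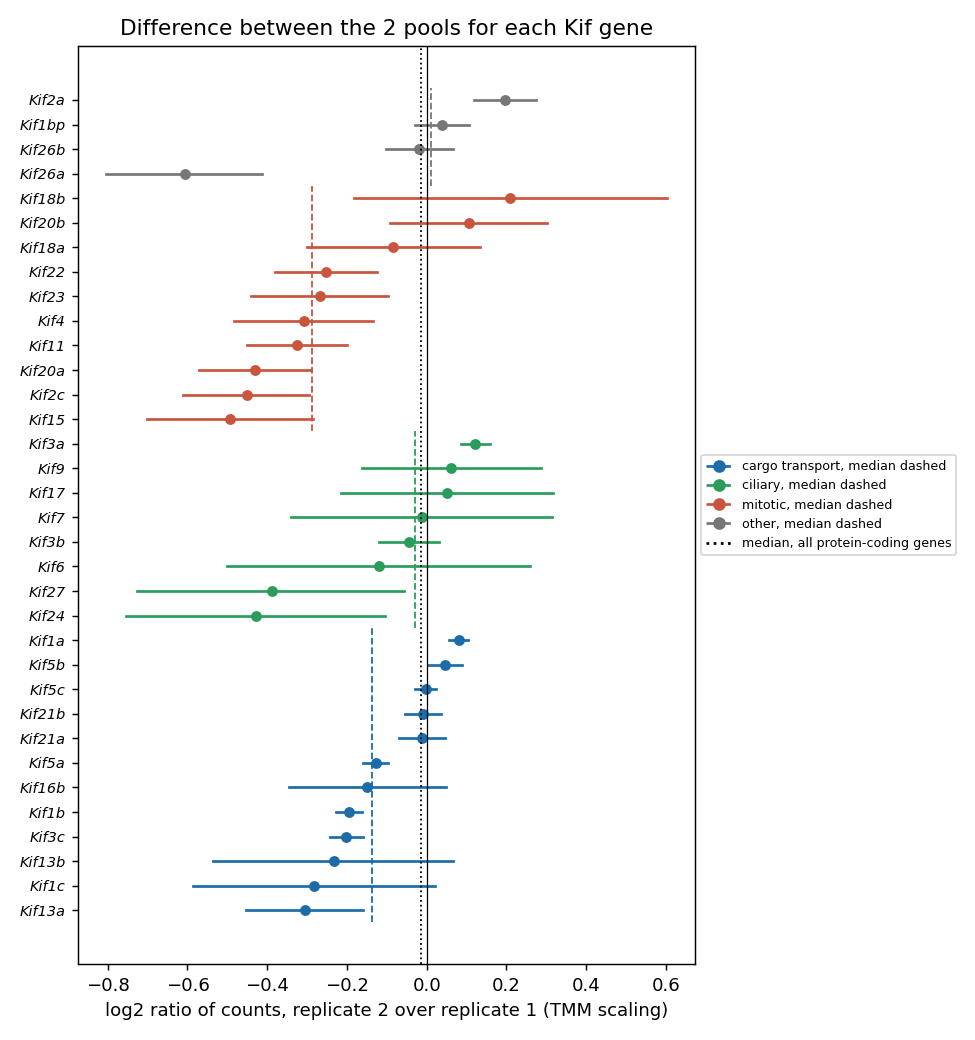
The log2 ratio of counts, replicate 2 over replicate 1 with TMM scaling, for 34 Kif genes grouped by role, with 95% counting intervals as bars, role medians as dashed lines and the median of all protein-coding genes as a dotted line. The mitotic median lies at -0.29 and 8 of the 10 mitotic genes lie below 0, a direction that turns under scaling by spike-in totals.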

How the data were processed

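Total RNA of 2 hindbrain pools was sequenced, and RNA longer than 200 bases was used, 10 ng per library with spike-ins, per the labels. The authors quantified each replicate separately against mm10 with GENCODE M4, per the deposited notes, with a tool that the sources used here do not name. Per the file headers, the authors deposited an expected count, TPM and FPKM for each gene and transcript. The deposited interval bounds on TPM, treated as scores, and the deposited isoform percent were used as given.

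Symbols, biotypes and coordinates were read from GENCODE M21 (GRCm38), to which 42462 of 43346 identifiers matched. Expected counts were rounded and scaled with edgeR 4.0.16 (TMM, prior count 0.5), and DESeq2 1.42.0 was used only for other size factors. The ratio step was tested on simulated data. Every member could be named, with full values from 10 TPM and for all pairs. Of each other list the 4 highest genes and the lowest could be named, and 1 marker list is not reported here. The members, lists and pairs were chosen with earlier results of these data known. With n = 2 in 1 group, values are given with their spread and without p-values.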

Additional observations from a re-analysis of the deposited data

Results flagged for a closer look

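Kif16bos, an antisense gene at Kif16b that is not a member, had 4 counts in replicate 2 and 2 in replicate 1. It stands outside the measurements described above, and the value in replicate 2 is above the 3 counts that a count of 0 allows. The pseudogenes Kif22-ps and Kif4-ps had 0 counts in both libraries.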

How the results depend on the processing

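Of 59 alternatives over 10 results, 43 gave the same reading. At 5 TPM, 18 kinesins were detected instead of 34, at 1 FPKM 30, and with 1 library left out 34. The cargo transport median of 46.4 TPM was 35.1 in full-length coding transcripts, an alternative chosen after seeing the data, and 43.8 to 49.0 with a library left out. The ciliary median of 2.16 TPM was 1.40 both in protein-coding and in full-length transcripts, 2.59 with posterior means, 2.91 over detected members, and 2.02 to 2.36 with a library left out. The mitotic median of 4.49 TPM was 5.73 over detected members and 4.09 to 4.90 with a library left out. Under spike-in scaling the median log2 ratios became 0.31 (cargo transport), 0.42 (ciliary) and 0.16 (mitotic). At a mean of 5 TPM or more they were -0.011 for cargo transport and 0.039 for ciliary kinesins, and with Kif3a and Kif3b counted as cargo transport the cargo transport median was -0.086. The 14 pairs that differ became 11 at over 1.5-fold in each library, 12 at that fold in protein-coding transcripts and 14 at that fold in full-length ones, and 14 to 15 with a library left out. The median protein-coding share of 99.92% was 99.13% from 5 TPM, 100% in counts and 99.9% to 100% with a library left out. The cause of these changes was not tested. No paired analysis was possible because there is only 1 group.

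Low counts limit Kif19a, Kif28, Kif12 and Kif2b most. Levels of Kif1a, Kif1b, Kif3a, Kif5b and Kif21b depend on how the authors' model split reads among transcripts that share sequence.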
